A study of Mus musculus with 8 samples.

Results

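Genes of the neuronal cytoskeleton, of synaptic vesicles and of transmitter synthesis were followed in vertebral column cells of mouse embryos that lack Bapx1, isolated by cell sorting. The set holds 50 genes with roles in differentiating neurons, and their expression in other cells of the samples was not tested. Of them 18 belong to the cytoskeleton and growth cone, 3 to the RNA-binding Elavl family, and 12 to vesicles and secretory granules. A further 6 are of adhesion, 6 of transmitter synthesis and transport, and 5 are other neuronal genes. All 50 were chosen by name, with earlier results of these data known, and every probe that the array annotation gives to them was used. Of the 50 genes, 49 had a probe in the annotation, 117 probes in all, and Nefh was not analysed here. Of these 117 probes 97 could be matched to a measured intensity. Of the 45281 probes on the array, 34885 had 1 named gene in the annotation, whether matched or not.

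The study asked how loss of Bapx1, a homeodomain repressor of sclerotome and early cartilage whose current symbol is Nkx3-2, alters transcription in the cells that would express it. The null group was 4 arrays from homozygous embryos (tm4.Tlu) in which EGFP followed directly on the Bapx1 start codon. The wildtype group was 4 arrays from embryos with an intact Bapx1 reading frame and an IRES-EGFP cassette in the 3′ UTR on 1 allele (tm2.Tlu). All embryos were C57BL/6J;129, at E12.5, and all RNA came from vertebral column cells collected by EGFP in a cell sorter. The reporter thus differed between the groups in its number of copies and in how it was translated. The samples are described as biological replicates, and the sources used here do not say whether each held 1 embryo or several. Levels below are log2 normalized intensities, differences are null minus wildtype on that scale, and a probe counted as called when its adjusted p, from limma over all 19965 probes tested, was under 0.05.

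As a neuron leaves the cell cycle it builds an axon from bundled microtubules and neurofilaments, switches on RNA-binding proteins that steady and splice neuronal transcripts, and later assembles the vesicle machinery that releases a transmitter. At this stage the neural tube and the dorsal root ganglia, where such cells arise, lie against the vertebral column. The sort selected EGFP made from the Bapx1 locus, which neural tube cells do not normally transcribe. Bulk arrays cannot separate fewer neurons in a sample from less RNA of these genes per cell.

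Several facts of the arrays bear on all results. By its tested probe Nkx3-2 read 5.45, 7.49, 6.59 and 7.55 on null arrays 1 to 4, against 4.42, 4.46, 4.48 and 4.84 on wildtype arrays 1 to 4, where it was not detected. It was at least 3.67-fold higher in the arrays labelled null (adjusted p = 0.0435). This is a bound, the mean of the null arrays over the higher of the measured value and the lowest detected level on the wildtype arrays. A second Nkx3-2 probe, which did not pass the detection filter, read 4.75, 7.57, 6.38 and 7.31 on null arrays 1 to 4. It was not detected on null array 1 or on any wildtype array. Where these probes lie relative to the EGFP insertions was not known here, so they do not check the genotypes, and null and wildtype below stand for the labels. Null array 1 correlated less with the other null arrays than with the wildtype arrays (mean r 0.972 and 0.976), and wildtype array 2 had the lowest mean correlation with its own group (0.969). The labelled tissue was present by its markers: 12 of 14 matched cartilage genes passed the detection filter, Sox9, Col2a1 and Acan among them, and 6 of them were called lower in null, with summed intensities between 17087 and 21205 in null against 31076 to 37120 in wildtype.

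Most neuronal genes of the set read higher in null, and few of them passed the test singly. Of 59 probes of 38 genes that passed the detection filter, 4 were called higher in null and 1 lower, which is 6.78% and 1.69% of them. Over all probes tested, 0.386% were called higher and 0.396% lower, and 0.781% in either direction. The called genes were Dcx, Map1b, Elavl2 and Elavl3 on the higher side and Slc6a17 on the lower side. By the brightest probe of each gene only Slc6a17 was called, since the 4 rises came from another probe of the gene. The difference was above 0 for 36 of the 38 genes, all but Slc6a17 and Dpysl3, with a median of 0.82 against -0.03 over all 10951 genes tested, and for 30 of them under median absolute deviation scaling, which moved the median of all probes to -0.26. At an unadjusted p under 0.05, 35 of the 59 probes (59.3%) were higher, against a background of 11%. All 4 null arrays lay above all 4 wildtype arrays for 21 probes (35.6%), against 4.76% of all probes, and below them for 1 probe (1.69%), against 6.05%. Scaling by median absolute deviation, which the study's methods name, gave 1 call over all probes. No member probe was called by limma under that scaling, where 28 had an unadjusted p under 0.05, or in the authors' log2 table, where 34 did. That table holds 7 of the 8 arrays used here and another null array in place of null array 4, and on the 7 shared arrays alone it also gave no call, with 33 member probes at that level. The linear model named in the methods, without limma's shared variance, also called none and gave 28 at that level.

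A filter on detection can favour probes that pass only through the group in which they are high. Of the 36 member probes detected on all 8 arrays, where this cannot happen, 33 had a difference above 0 (91.7%), against 42.9% of all 16345 such probes, and 15 had null arrays wholly above wildtype arrays (41.7%), against 4.4%. Of the 50 genes, 15 are on the list of changed genes that the study drew from these arrays, so their direction is not independent evidence. The 15 had a median difference of 1.08, with 14 above 0. The 23 tested genes that are not on that list had a median of 0.54, with 22 above 0, and 2 of the 5 called probes, those of Map1b and Elavl3, were theirs. These 23 were also chosen with earlier results of these data known, so they are not independent evidence either. Both called probes were detected on 4 null arrays, that of Map1b on 1 wildtype array and that of Elavl3 on 2.

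**Figure D1:**
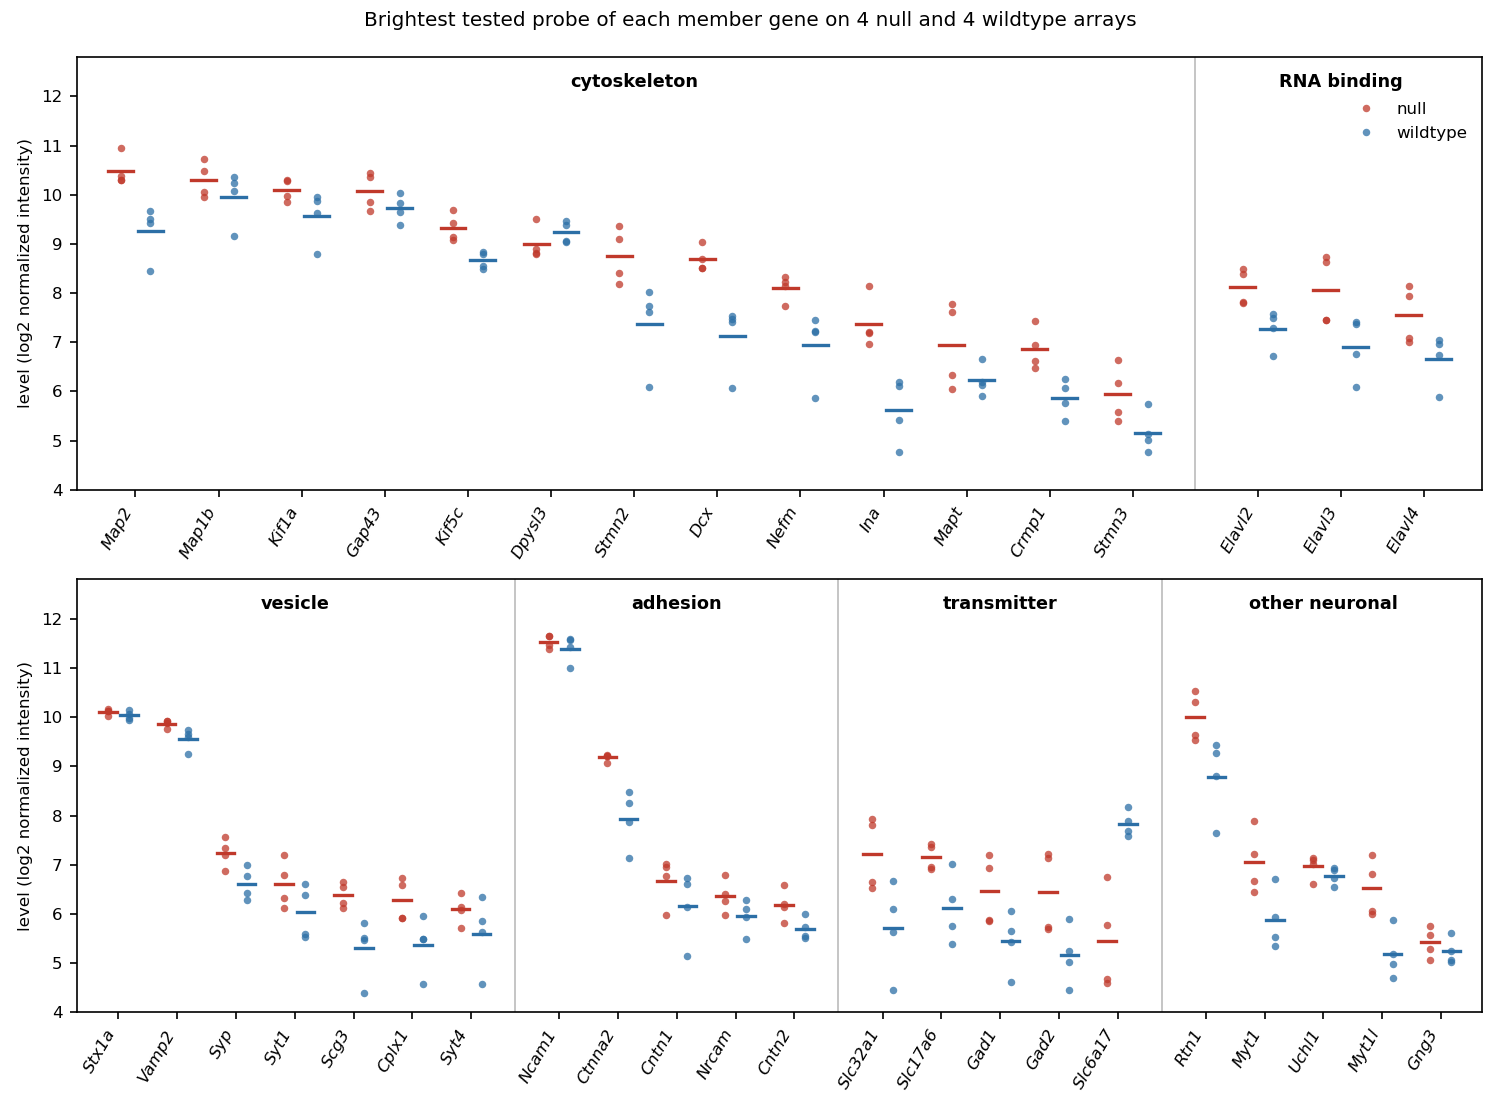
Level of the brightest tested probe of each of 38 member genes, by class (x axis: gene, y axis: log2 normalized intensity). Points are single arrays, null left and wildtype right, and bars are group means of 4 arrays. Null means lie above wildtype means in 36 genes (30 under median absolute deviation scaling), and Slc6a17 stands out with wildtype arrays between 7.59 and 8.18 and null arrays between 4.59 and 6.76.

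The promoter windows of the called genes are shown because these are the members that passed the test. RefSeq windows (GRCm38.p6, 250 bases before to 50 after each annotated start) were at hand for 38 of the 50 genes, 63 windows in all. Searched on both strands were the core TAAGTG or TGAGTG, the site that the study gives for Bapx1 itself, and the E-box spellings CAGCTG as well as CAGATG plus CAGGTG, which proneural bHLH factors can bind. The first pair differ in 1 base and cannot overlap at the same position, and CAGCTG is its own reverse complement. Below are 30-base stretches with the matched motif in capitals, written 5′ to 3′ on the strand of the gene, for the match nearest an annotated start.

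Elavl2, TAAGTG (chr4:91376659-91376688, minus strand): cgccgccagtgtTAAGTGtgtacctcccgg
Elavl2, CAGCTG (chr4:91399966-91399995, minus strand): caaggatcttagCAGCTGctagcagcagcc
Elavl3, CAGCTG (chr9:22052049-22052078, minus strand): cgccggcgctggCAGCTGcctctataaagg
Map1b, CAGATG (chr13:99516798-99516827, minus strand): aatgatttgctgCAGATGacatcagccctg
Slc6a17, CAGATG on the other strand (chr3:107500738-107500767, minus strand): tcatctgctgctCATCTGctttcacaggct

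The E-box matches of Elavl2, Elavl3 and Slc6a17 began at 2, -43 and -15 bases from an annotated start, and the one of Map1b at -213. Dcx had no match to any of the 5 spellings in its windows. A core of the Bapx1 type was found in 11 of the 63 member windows (17.5%), against 23.9% of all 32851 windows. Besides Elavl2 it was found in Syp, Cplx1, Crmp1, Gad1, Kif1a, Myt1l, Nrcam, Scg2 and Slc17a6. An E-box of the 3 spellings was found in 37 of 63 (58.7%), against 44.3%. These are matches of letters, not sites.

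The 4 probes called higher were in microtubule and RNA-binding genes. Dcx, doublecortin, a microtubule-associated protein of migrating young neurons, read 8.63, 8.59, 9.0 and 8.44 on null arrays 1 to 4, against 7.07, 6.23, 7.58 and 7.65 on wildtype arrays 1 to 4, by its called probe. The null arrays lay within 0.56 of each other and wholly above the wildtype arrays, of which array 2 was lowest. The difference was 1.53 ± 0.29 (SE, n = 4 each, 2.88-fold, adjusted p = 0.0496). Its brighter probe gave 8.69 ± 0.25 in null and 7.12 ± 0.70 in wildtype (SD, n = 4 each), a difference of 1.57 that just missed the threshold (adjusted p = 0.052). A further probe of Dcx did not pass the filter.

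Map1b, a microtubule-associated protein of growing axons, was measured by 5 tested probes that did not move alike. The called probe read 5.98, 5.89, 5.78 and 5.55 in null, against 4.6, 4.53, 4.88 and 4.6 in wildtype, a difference of 1.15 ± 0.13 (SE, n = 4 each, adjusted p = 0.00854). It was detected on 4 of 4 null arrays and on 1 of 4 wildtype arrays, so it measured the wildtype level near background. The brightest probe of the gene read 10.73, 9.96, 10.48 and 10.05 in null, against 10.36, 9.17, 10.23 and 10.07 in wildtype, groups that overlapped. Its difference was 0.35 ± 0.27 (SE, adjusted p = 0.471), and the remaining probes differed by 0.70, 0.09 and -0.01, none of them called. The rise of Map1b therefore rests on 1 of 5 probes.

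The Elavl genes encode RNA-binding proteins that regulate splicing and stability of neuronal transcripts, and all 6 tested probes of the 3 genes had a positive difference, with 2 called. Elavl2 by its called probe read 7.32, 7.32, 8.12 and 7.33 in null, against 6.07, 5.70, 6.13 and 6.54 in wildtype (difference 1.41 ± 0.23, SE, n = 4 each, 2.66-fold, adjusted p = 0.0275). The groups did not overlap, and null array 3 lay apart above the other null arrays. By its brightest probe Elavl2 read 8.48, 7.80, 8.39 and 7.82 in null, against 7.30, 6.72, 7.5 and 7.58 in wildtype, again without overlap but with a smaller difference (0.85 ± 0.23, adjusted p = 0.102).

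Elavl3 by its called probe read 6.30, 5.85, 6.44 and 5.95 in null, against 5.11, 4.91, 5.09 and 4.89 in wildtype, where it was detected on 2 of 4 arrays. The groups were separated, with a difference of 1.13 ± 0.15 (SE, n = 4 each, adjusted p = 0.0155). The brightest probe gave a like difference, 1.16, with a wider spread (8.73, 7.46, 8.64 and 7.46 in null, against 6.76, 6.09, 7.38 and 7.42 in wildtype, adjusted p = 0.144). Null arrays 2 and 4 were then only just above wildtype arrays 3 and 4. Elavl4 read 8.14, 7.01, 7.94 and 7.09 in null, against 6.74, 5.89, 6.96 and 7.05 in wildtype, a difference of 0.88 that was not called (adjusted p = 0.168), and its groups overlapped.

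**Figure D2:**
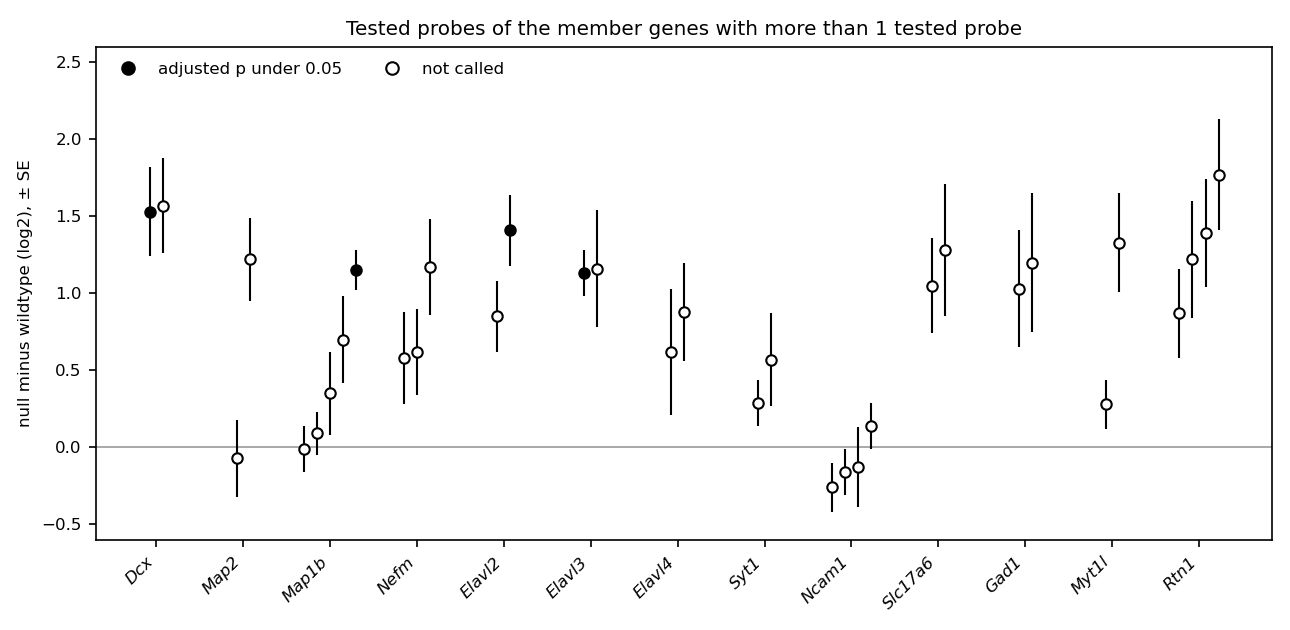
Difference between null and wildtype (y axis, log2, ± SE, n = 4 each) for every tested probe of the 13 member genes with more than 1 such probe (x axis). Filled points have an adjusted p under 0.05. The probes of Dcx, Elavl3 and Gad1 lie close together, while those of Map1b span -0.01 to 1.15 and those of Map2 -0.07 to 1.22.

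In some of the other cytoskeletal genes the groups separated, and in others they overlapped. Of 21 tested probes in 13 genes, 2 were called and 12 were higher at an unadjusted p under 0.05, and no probe was lower by either measure. Map2, which stabilises microtubules in dendrites, read 10.30, 10.29, 10.96 and 10.38 in null, against 9.43, 8.45, 9.50 and 9.67 in wildtype (difference 1.22 ± 0.27, SE, adjusted p = 0.0702). All null arrays were higher than all wildtype arrays, and null array 3 was the highest. A second Map2 probe differed by -0.07 (adjusted p = 0.891). Ina, the intermediate filament alpha-internexin of early axons, had the highest difference among the brightest probes: it read 7.20, 7.18, 8.14 and 6.96 in null, against 6.20, 4.76, 5.41 and 6.11 in wildtype, without overlap (1.76 ± 0.35, 3.38-fold, adjusted p = 0.0535). Gap43, a growth cone phosphoprotein, read 10.45, 9.85, 10.36 and 9.66 in null, against 10.04, 9.38, 9.83 and 9.65 in wildtype. Its groups overlapped, and the difference of 0.35 was not called (adjusted p = 0.342).

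Stmn2, a microtubule-destabilising protein of growth cones, differed by 1.40 ± 0.42 (adjusted p = 0.122). Nefm, the medium neurofilament chain, differed by 1.17 at its brightest probe and by 0.58 and 0.62 at its others. Crmp1, a semaphorin signalling protein, differed by 1.0, and Kif5c, a kinesin heavy chain of axonal transport, by 0.66. For Stmn2, Crmp1, Kif5c and the brightest Nefm probe every null array was above every wildtype array, yet none was called (adjusted p between 0.0814 and 0.122). Stmn3 (0.78), Mapt (0.72), which encodes the axonal protein tau, and Kif1a (0.54), a kinesin that carries synaptic vesicle precursors, overlapped between groups. Dpysl3, a relative of Crmp1, was at 9.0 ± 0.33 in null and 9.24 ± 0.22 in wildtype (SD, n = 4 each), 1 of only 2 genes with a negative difference. Tubb3, Stmn4, Nefl and Prph had no probe that passed the filter: neuronal beta-tubulin III and both Stmn4 probes were each detected on 1 array or on none.

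No vesicle gene was called. Of 8 tested probes in 7 of 12 genes all 8 had a difference above 0, with a median of 0.53. Stx1a, a plasma membrane SNARE, had the smallest difference of the 38 brightest probes, at 10.16, 10.13, 10.13 and 10.02 in null, against 9.95, 9.99, 10.06 and 10.15 in wildtype (0.07 ± 0.10, SE). Vamp2, its partner on the vesicle, read 9.92, 9.75, 9.92 and 9.89 in null, against 9.65, 9.25, 9.60 and 9.74 in wildtype, with groups that met but did not overlap and a difference of 0.31 (adjusted p = 0.21). Both were detected on all 8 arrays.

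Scg3, Cplx1 and Syp had the smallest unadjusted p of the class. Scg3, a granin-binding protein of secretory granules, read 6.64, 6.12, 6.54 and 6.22 in null, against 5.52, 4.39, 5.82 and 5.47 in wildtype, without overlap (1.08 ± 0.28, SE, adjusted p = 0.0935). Cplx1, complexin 1, which clamps SNARE complexes, read 6.74, 5.92, 6.59 and 5.91 in null, against 5.48, 4.58, 5.48 and 5.96 in wildtype, so wildtype array 4 overlapped with null arrays 2 and 4 (0.92, adjusted p = 0.14). Syp, synaptophysin, read 7.56, 6.87, 7.34 and 7.20 in null, against 6.77, 6.42, 6.29 and 6.99 in wildtype, where array 4 lay above null array 2 (0.62, adjusted p = 0.131). The calcium sensors Syt1 and Syt4 differed by 0.57 and 0.49, with overlap. Snap25, Cplx2, Chga, Chgb and Scg2 had no tested probe, and Snap25 and Cplx2 were detected on no array by their matched probes.

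Among adhesion genes Ctnna2 alone separated. This neuronal alpha-catenin, which links cadherins to actin, read 9.21, 9.07, 9.23 and 9.22 in null, against 8.25, 7.14, 7.86 and 8.47 in wildtype. The null arrays were within 0.16 of each other, so that the spread was in the wildtype group, and the difference was 1.25 ± 0.25 (SE, 2.38-fold, adjusted p = 0.0545). Ncam1, the neural cell adhesion molecule, did not separate: it read 11.66, 11.46, 11.64 and 11.38 in null, against 11.58, 11, 11.57 and 11.42 in wildtype (0.14). Its other tested probes differed by -0.16, -0.13 and -0.26, none called.

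The contactins and Nrcam, immunoglobulin-family proteins of axons, lay between. Cntn2 read 6.21, 6.15, 5.81 and 6.59 in null, against 5.74, 5.51, 5.56 and 6.00 in wildtype (0.49 ± 0.18, SE, adjusted p = 0.172). Cntn1 read 5.97, 6.77, 6.96 and 7.01 in null, against 6.14, 5.14, 6.60 and 6.74 in wildtype (0.52), and it had its lowest null value on array 1, where most members were high. Nrcam read 6.80, 5.98, 6.41 and 6.26 in null, against 5.93, 5.49, 6.28 and 6.10 in wildtype (0.41). All 3 overlapped between groups, and L1cam had no probe that passed the filter.

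Transmitter genes held the only called fall. Slc6a17 encodes a neutral amino acid transporter of synaptic vesicles. It read 5.78, 4.59, 6.76 and 4.67 in null, against 7.68, 7.59, 7.89 and 8.18 in wildtype. The groups were far apart, and the difference was -2.39 ± 0.43 (SE, n = 4 each, adjusted p = 0.0426). The probe was detected on 4 of 4 wildtype arrays and only on null arrays 1 and 3. The readings of null arrays 2 and 4 are those of background, so the difference is not an exact one and no fold is given. Its other matched probe was not tested, being detected on 1 of the 8 arrays.

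The markers of transmitter type all differed in the opposite direction and none was called. Slc32a1, the vesicular transporter for GABA and glycine, read 7.81, 6.65, 7.92 and 6.53 in null, against 5.63, 4.45, 6.10 and 6.67 in wildtype (1.52 ± 0.48, SE, adjusted p = 0.135). Slc17a6, the vesicular glutamate transporter of excitatory neurons, read 7.37, 6.91, 7.42 and 6.96 in null, against 5.75, 5.39, 6.31 and 7.02 in wildtype (1.05 ± 0.31, adjusted p = 0.122). In both, wildtype array 4 reached the level of null arrays 2 and 4, and null arrays 1 and 3 were higher than any other array. Gad1 and Gad2, which make GABA from glutamate, differed by 1.03 and 1.28 by their brightest probes, with the same overlap, and the second tested Gad1 probe by 1.20. Chat, the enzyme of acetylcholine synthesis in motor neurons, had no probe that passed the filter, and only 1 of its 2 matched probes was detected at all, on 1 null array.

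Of the other neuronal genes, Rtn1, a reticulon of the neuronal endoplasmic reticulum, was measured by 4 tested probes. By its brightest probe it read 10.53, 9.53, 10.30 and 9.64 in null, against 8.80, 7.64, 9.28 and 9.43 in wildtype, without overlap (1.22 ± 0.38, SE, adjusted p = 0.133). Its 3 further tested probes differed by 1.39, 1.77 and 0.87, and the probe at 1.77 came closest to the threshold (adjusted p = 0.0559). Myt1l, a zinc-finger factor that represses non-neuronal genes, read 7.19, 6.06, 6.82 and 6.00 in null, against 4.99, 4.70, 5.18 and 5.87 in wildtype (1.33 ± 0.32, adjusted p = 0.0803), a narrow separation from wildtype array 4. Its relative Myt1 read 7.22, 6.66, 7.88 and 6.45 in null, against 5.53, 5.35, 5.93 and 6.71 in wildtype (1.17), and here wildtype array 4 overlapped with null arrays 2 and 4. Uchl1, a ubiquitin hydrolase of neurons, read 6.61, 7.10, 7.14 and 7.01 in null, against 6.89, 6.55, 6.72 and 6.94 in wildtype (0.19), and Gng3, a G-protein gamma subunit, differed by 0.18. Neither of these was called.

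Within each genotype the arrays kept an order that ran through most of the set. This order was noticed after the values were seen, and arrays of a genotype are not ranked by any label. Null arrays 1 and 3 both lay above null arrays 2 and 4 in 31 of the 38 genes (81.6%), against 24.0% of all 10951 genes, and in 5 of 5 transmitter genes, Slc6a17 included. Nkx3-2 had the opposite order, with null arrays 1 and 3 below null arrays 2 and 4. Wildtype array 2 was the lowest wildtype array in 33 of 38 genes (86.8%, against 32.5% of all genes), and wildtype array 4 the highest in 29 (76.3%, against 22.8%). Averaged over the transmitter genes and set against the mean of all 8 arrays, the level was 0.70, -0.35, 1.0 and -0.36 on null arrays 1 to 4, against -0.40, -1.0, -0.06 and 0.46 on wildtype arrays 1 to 4. The groups thus overlapped, and the 5 genes include Slc6a17, which ran the other way between genotypes. Averaged over the 13 cytoskeletal genes the level was 0.65, 0.19, 0.80 and 0.10 on the null arrays, against -0.29, -1.03, -0.30 and -0.11 on the wildtype arrays, where the groups did not overlap. The average over the 5 adhesion genes did not follow the order of the null arrays, with 0.26, 0.18, 0.30 and 0.39 in null against -0.18, -0.85, -0.13 and 0.04 in wildtype. Singly, 2 of these 5 genes (40.0%) had null arrays 1 and 3 both above null arrays 2 and 4.

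**Figure D3:**
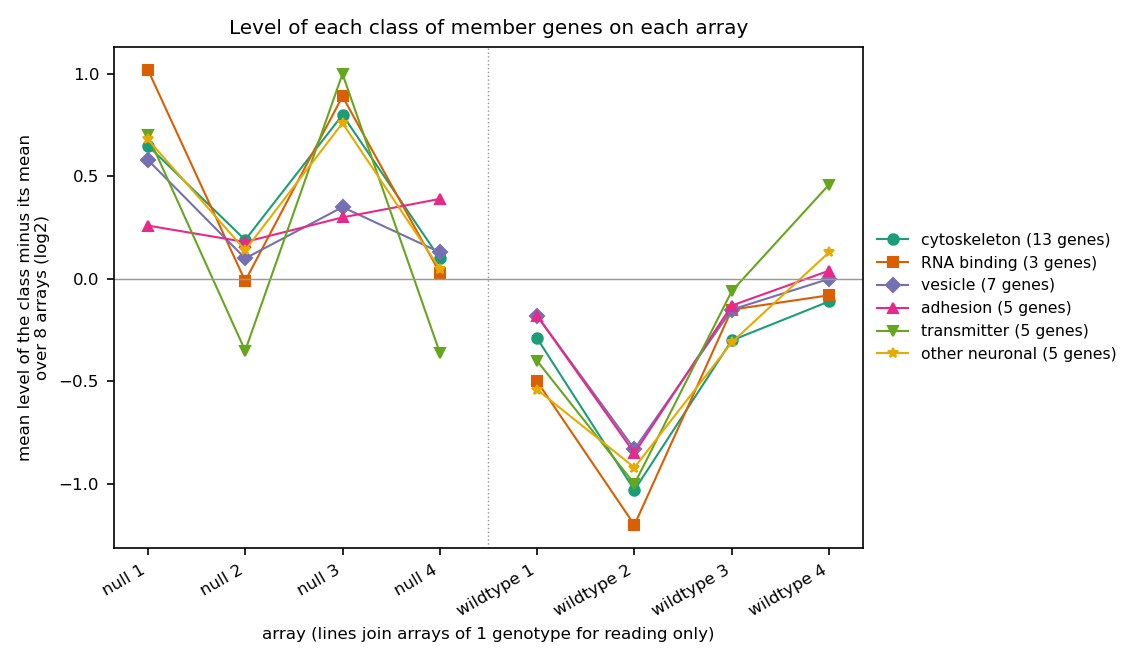
Mean level of each class of member genes on each array minus its mean over all 8 arrays (y axis, log2), null arrays 1 to 4 left and wildtype arrays 1 to 4 right (x axis). In the transmitter class null arrays 2 and 4 (-0.35 and -0.36) lie below wildtype array 4 (0.46), while in the cytoskeleton class all null arrays lie above all wildtype arrays.

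Detection moved the same way as level. Of the 97 matched probes, 36 were detected on all 8 arrays and 21 on none, 31 were detected on more null than wildtype arrays, and 8 on fewer. The like counts over all probes were not made, and detection rests on the same intensities as level. None was detected on all 4 arrays of 1 genotype and on none of the other. Of the probes detected on 4 null arrays, 16 were missed on exactly 1 wildtype array. In all 16 that array was wildtype array 2, which had the lowest mean correlation with its own group. Among them were the brightest probes of Ina, Scg3, Cplx1, Gad1, Gad2, Slc32a1, Myt1l, Stmn3 and Syt4. Thus 16 of the 31 probes detected on more null arrays differed in detection by this 1 array.

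**Figure D4:**
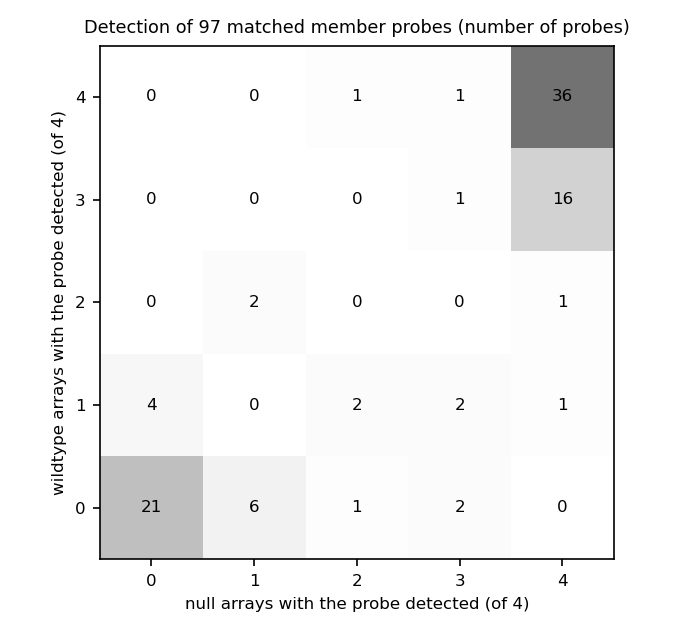
Number of the 97 matched member probes by how many null arrays (x axis) and wildtype arrays (y axis) detected them. Apart from 36 probes on all arrays and 21 on none, most lie below the diagonal, with 16 on 4 null and 3 wildtype arrays.

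Leaving out null array 1 changed the counts most among the arrays of the set. Without it 13 member probes in 12 genes were called higher (22.0%) and 1 lower (1.69%), against 9.26% and 6.61% of all probes tested. Besides the 5 calls already named, the brighter Dcx probe and 1 probe each of Crmp1, Ctnna2, Ina, Kif5c, Map2, Myt1l, Nefm and Rtn1 were then called, with adjusted p between 0.0169 and 0.0478 for those 9 probes. No vesicle probe was. Map1b and Elavl3 were called when any of the 8 arrays was left out, and Elavl2 in 4 of 8 cases (without wildtype array 2 or 4, or null array 1 or 3). Dcx was called in 2 of 8 cases, without wildtype array 2 or null array 1, and Slc6a17 in 2 of 8, without null array 1 or 3. The count of called member probes was 2 without wildtype array 1 or 3 or null array 2 or 4, 3 without wildtype array 4, 4 without null array 3 and 6 without wildtype array 2. Those counts are of 59, and in the same fits 29 to 171 of all 19965 probes were called.

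**Figure D5:**
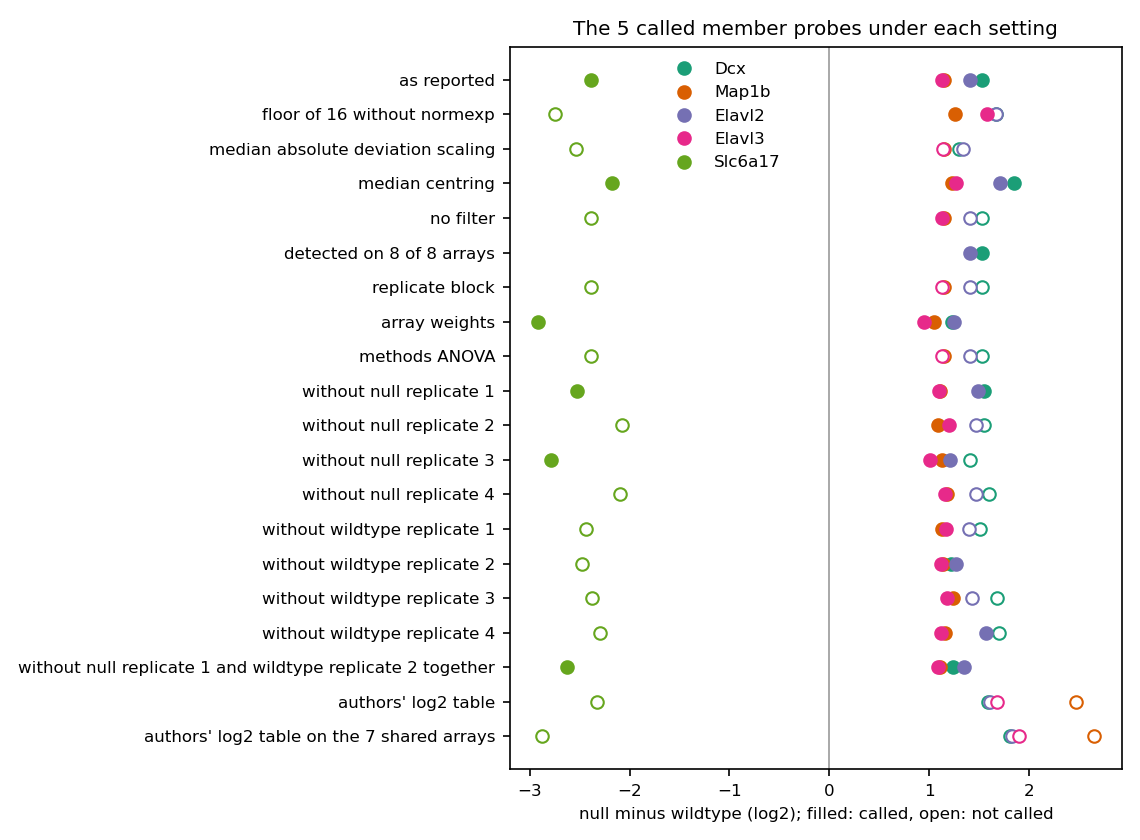
Difference between null and wildtype (x axis, log2) of the 5 called member probes under each way of processing or choice of arrays (y axis). Filled points were called. The direction is the same in every setting, from 0.95 to 2.65 for the 4 rises and from -2.92 to -2.08 for Slc6a17.

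Further genes of neurons also read higher in null more often than lower. In a list of 68 further genes of neurons, 40 were tested, 1 was called higher and none lower by the brightest probe, and the median difference was 0.25. The called gene was Kif5a, a kinesin of axons, at 6.39 ± 0.20 in null and 5.46 ± 0.29 in wildtype (SD, n = 4 each, adjusted p = 0.0431). At an unadjusted p under 0.05, 15 of the 40 were higher and 2 lower. The 2 lower genes were Snap91 (-0.84, adjusted p = 0.0505) and Kif21a (-0.37, adjusted p = 0.218). Over all 10951 genes tested, 12% were higher and 11% lower at that level by the brightest probe. Among all these genes 54 were called higher and 49 lower. Of 14 tested transcription factors of spinal and sensory neurons, 3 were called higher and none lower. The difference was above 0 for 12 of the 14, with a median of 0.30, and below 0 for Isl1 (-0.33) and Barhl1 (-0.02). A further 7 such factors were detected on no array. Gata3, of spinal inhibitory interneurons, was at 6.04 ± 0.41 in null and 4.85 ± 0.19 in wildtype (SD, n = 4 each, adjusted p = 0.0352). It was detected on 4 null and 2 wildtype arrays, so its wildtype level was near background and no fold is given. Ebf2 was 1.83-fold higher (adjusted p = 0.0471). Lhx5, a LIM factor of interneurons, was detected on 4 null and 0 wildtype arrays and was at least 1.91-fold higher (adjusted p = 0.0496).

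Markers of other cells that the sort could hold also moved between the groups. All 10 meningeal genes tested had a positive difference and 4 were called higher, with summed intensities of 13623 to 16162 in null against 9169 to 10964 in wildtype. Of 7 endothelial genes 1 was called, with sums of 1326 to 2159 in null against 655 to 1172 in wildtype. None of 9 skeletal muscle genes was called, but their sums were 2955, 1191, 1943 and 1229 on null arrays 1 to 4, against 966, 643, 1214 and 1110 on wildtype arrays 1 to 4, with null arrays 1 and 3 again highest. Blood genes were high on wildtype array 4 (3997), against 866 to 1180 in null and 643 to 893 on the other wildtype arrays. The 7 neural progenitor genes tested went both ways, with a median difference of 0.37 and sums of 982 to 1573 in null against 1290 to 1729 in wildtype. Nkx2-2 and Nkx6-1 were called lower (-1.26 each) and Msi1 differed by -0.67, while Nes (0.37), Gbx2 (1.16), Fabp7 (0.71) and Sox2 had positive differences at an unadjusted p under 0.05 and were not called. Sox2 was detected on 4 null and 0 wildtype arrays and was at least 1.48-fold higher (adjusted p = 0.0941), and Olig2, Pax6, Sox1 and Sox3 were detected on no array. Of 5 neural crest and Schwann cell genes Ngfr was called higher and none lower, but the median difference was -0.27. Tfap2b differed by 0.84, Ets1 by -0.27, Mia by -1.21 and Sox10 by -0.64 (adjusted p = 0.108). The part of these cells in the neuronal differences was not tested.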

How the data were processed

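RNA of EGFP-sorted vertebral column cells was hybridised to Illumina MouseWG-6 v2 arrays, 4 per genotype. The deposited non-normalized table holds background-subtracted intensity and a detection p-value per probe from GenomeStudio (version not given in the sources used here), written so that bright probes lie near 1 and used here as 1 minus the value. A second deposited table holds log2 values that the authors normalized, and 7 of its 8 arrays are in the first table. The null numbers differ between the tables: log2 arrays null 2, 3 and 4 hold null arrays 1, 2 and 3 of the first table, and log2 array null 1 matches none. Array numbers here are those of the first table. Scale and direction of the log2 values follow from that comparison, while the exact centring stays unknown. Probes of the first table carry array addresses only. They were named by matching their values on the 7 shared arrays to the log2 table (within 0.001 log2), which named 35665 of 45281 probes (78.76%). Gene symbols came from the platform annotation. Of the 45281 probes, matched or not, 34885 had 1 gene in it, and 18 had several and were not used.

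Intensities were corrected with limma 3.58.1 (R 4.3.3) by normexp (offset 16, negative controls inferred from the detection p-values), quantile-normalized and put on the log2 scale. Between 28.0% and 31.4% of values per array were below 0 before this step, and 41.0% to 45.8% of probes were detected. Probes with a detection p-value under 0.05 on at least 4 of 8 arrays were tested (19965) with lmFit and eBayes, null over wildtype, with Benjamini-Hochberg adjustment over all of them. The number of arrays limits the precision. On simulated data for this comparison and these 19965 probes, 20%, 78%, 94% and 100% of probes changed 1.5-, 2-, 4- and 8-fold were recovered. The simulated noise was independent for each probe and array, without shifts that many probes of an array share. These shares thus need not hold for the member probes and do not bound the change of an uncalled one. The brightest tested probe stood for a gene where genes were counted.

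The members and lists were chosen with earlier results of these data known. Array values are given for members with a called probe, in each class for the 3 of highest mean and the 3 of smallest unadjusted p, for members whose probes differ in sign with either past 0.05, for members detected in 1 genotype only (none), and for members lower at an unadjusted p under 0.05. Other members named were added after their values were seen. Alternatives were a floor of 16, 2 other scalings, 2 other filters, the log2 table, that table on the 7 shared arrays (added after seeing the data), a replicate block, array weights, the methods' ANOVA with a fold change over 1.5, and leaving out arrays. Neither the labels nor the headers give a chip or scan batch. The replicate numbers of the labels did not pair the arrays. Probe sequences and positions were not used here. Promoter sequences are RefSeq's (GRCm38.p6). Figures were drawn with matplotlib 3.10.9.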

Additional observations from a re-analysis of the deposited data

Results flagged for a closer look

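Some single arrays lay far from the rest of their group, by a gap to the nearest array that, as a share of the whole range of the 4 values, was above Dixon's limit. Chance alone would mark about 1 in 20 groups, and 5 of 58 groups examined were marked. Null array 3 was high for Elavl2 by its called probe (8.12, gap 0.986 of the range) and for Map2 (10.96, 0.866). Null array 2 was low for Vamp2 (9.75, 0.838) and for Ctnna2 (9.07, 0.847), although all null arrays of Ctnna2 lay within 0.16. Wildtype array 2 was low for the brighter Dcx probe (6.07, 0.921). Without wildtype array 2 the called Dcx probe and Elavl2 were still called, and without null array 3 Elavl2 was still called.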

How the results depend on the processing

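The alternatives left the median difference of the member genes between 0.48 and 1.26, against 0.82 as reported, and 0.72 over all member probes. The 5 called member probes kept their direction in all alternatives in which they were tested. The number of calls did not hold. Over all probes 156 were called, against 102 with a floor of 16, 1 with median absolute deviation scaling, 75 with no filter, 20 with the replicate block, 6190 with array weights, 9 with the methods' ANOVA, 16 with the log2 table, 8 with the log2 table on the 7 shared arrays, 3970 without null replicate 1 and wildtype replicate 2 together, and 29 to 3168 when 1 array was left out. Of the member probes 5 were called, against 2 with the floor, 0 with median absolute deviation scaling, 12 with median centring, 2 with no filter, 3 when detected on 8 of 8 arrays, 0 with the replicate block, 20 with array weights, 0 with the methods' ANOVA, 0 with the log2 table on all or on the shared arrays, 13 without both arrays, and 2 to 14 when 1 array was left out. With array weights the 20 calls were of 59 member probes, against 6190 of 19965 probes. Without both arrays the 13 calls were of 59, against 3970 of 19965. These 2 member counts are thus near the share over all probes. With median centring the 12 calls were of 59, against 109 of 19965, and without null replicate 1 the 14 were of 59, against 3168 of 19965. At an unadjusted p under 0.05 limma gave 36 member probes in the reported fit, 28 with median absolute deviation scaling, 39 with the block, 34 with the log2 table and 33 on its shared arrays, and the ANOVA gave 28. The log2 table lacks null array 4 and holds another null array, so its counts change arrays as well as normalization. On the 7 shared arrays, a choice made after seeing the data, its median for the member genes was 1.26, against 0.98 without null replicate 4 in the reported processing. Member genes called were 1 by the brightest probe and 5 by any probe. Median centring split all calls into 87 higher and 22 lower, against 77 and 79 as reported, and it moved the median of all probes from -0.04 to 0.19. The replicate block was not a pairing, since arrays with the same number correlated at -0.049, -0.107, -0.195 and 0.036 after removal of the group means.

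The brightest probe of some members changed sign. With median absolute deviation scaling, which moved the median of all probes to -0.26, differences of the brightest probe became -0.33 for Map1b, -0.28 for Gap43, -0.12 for Kif1a, -0.68 for Stx1a, -0.34 for Vamp2 and -0.89 for Ncam1. With array weights they became -0.04 for Map1b, -0.02 for Ncam1 and -0.01 for Gng3, and without null replicate 1 and wildtype replicate 2 together -0.06 for Map1b and -0.03 for Ncam1, and with median centring that of Dpysl3 became 0.04. None of these was called. The cause was not tested. Dim members are limited by background: 38 matched member probes did not pass the filter.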
